A study of Mus musculus with 12 samples.

Results

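The genes described here are 10 genes of milk secretion, Csn1s1, Csn1s2a, Csn2, Csn3, Wap, Lalba, Lao1, Btn1a1, Muc1 and Glycam1, out of 20660 genes that could be named on a mouse expression array. They were chosen by name as milk protein and lactation genes, and every non-control probe whose accession leads to one of these symbols was taken, which gave 12 probes. Wap and Lao1 had 2 probes each and the other members 1 each. A probe passed the filter on dim probes where 3 or more of the 12 arrays had a tumour channel well above background. This left 11 probes and 9 members, since Glycam1 did not pass, and its values are given per array only.

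The study compared mammary tumours of FVB mice that all carried the MMTV-Wnt1 transgene, in which the MMTV promoter, active in mammary epithelial cells, expresses the growth factor Wnt1. The knockout tumours (KO) were Rarb -/-, lacking the retinoic acid receptor gene Rarb, and the wild-type tumours (WT) were Rarb +/+. Laser capture microdissection separated each tumour into an epithelial and a stromal sample, which gave 3 arrays in each of 4 groups: KO stroma, WT stroma, KO epithelium and WT epithelium, from KO tumours numbered 1, 3 and 4 and WT tumours numbered 1, 2 and 3. Whether every tumour was taken from a different mouse is not stated in the labels, and p-values describe only how these samples spread. On every array the tumour RNA carried the dye Cy3 and a universal mouse reference RNA carried Cy5, and each value below is the log2 ratio of tumour sample over reference for 1 probe, unless a signal is named. A ratio is compared between samples for the same probe and never between probes.

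Milk proteins are made by luminal alveolar cells of the mammary gland in late pregnancy and lactation. The caseins form the micelles that carry calcium and phosphate, whey acidic protein and alpha-lactalbumin are whey proteins, and the fat is released in globules wrapped in a membrane that holds butyrophilin and mucin 1. Prolactin drives these genes through its receptor Prlr, the kinase Jak2 and the transcription factors Stat5a and Stat5b, together with the alveolar transcription factor Elf5.

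Stat5 binds the motif TTCNNNGAA, and Csn2 is a textbook Stat5 target. The regulatory sequence next to the gene start is therefore shown for Csn1s1, Csn2, Glycam1, Wap and Lalba. The windows are the 250 bases before the gene start in RefSeq on build GRCm38.p6, written in the direction of the gene, with any match to the motif in capitals. Of 8 members with a RefSeq promoter entry, Csn1s1 at chr5:87665958-87666207 on the plus strand, Csn2 at chr5:87699426-87699675 on the minus strand and Glycam1 at chr15:103565082-103565331 on the minus strand held a match. Wap at chr11:6638650-6638899 on the minus strand and Lalba at chr15:98482684-98482933 on the minus strand held none. Neither did Csn1s2a, Lao1 or Muc1, whose windows are not shown, so the windows shown favour those with a match. Csn3 and Btn1a1 have no entry.
Csn1s1: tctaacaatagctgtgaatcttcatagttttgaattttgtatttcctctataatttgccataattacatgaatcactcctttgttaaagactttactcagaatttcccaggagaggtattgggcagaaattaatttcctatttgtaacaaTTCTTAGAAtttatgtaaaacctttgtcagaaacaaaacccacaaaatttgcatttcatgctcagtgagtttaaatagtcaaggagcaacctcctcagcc
Csn2: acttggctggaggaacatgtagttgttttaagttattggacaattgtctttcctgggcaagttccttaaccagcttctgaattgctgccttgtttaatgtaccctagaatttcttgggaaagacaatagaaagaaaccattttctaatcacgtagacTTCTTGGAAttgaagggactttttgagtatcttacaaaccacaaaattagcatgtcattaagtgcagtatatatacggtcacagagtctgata
Glycam1: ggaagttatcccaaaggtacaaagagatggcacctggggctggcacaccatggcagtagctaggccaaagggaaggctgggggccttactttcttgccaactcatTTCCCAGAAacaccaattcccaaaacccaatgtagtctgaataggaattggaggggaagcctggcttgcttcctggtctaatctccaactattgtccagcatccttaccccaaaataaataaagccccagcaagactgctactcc
Wap: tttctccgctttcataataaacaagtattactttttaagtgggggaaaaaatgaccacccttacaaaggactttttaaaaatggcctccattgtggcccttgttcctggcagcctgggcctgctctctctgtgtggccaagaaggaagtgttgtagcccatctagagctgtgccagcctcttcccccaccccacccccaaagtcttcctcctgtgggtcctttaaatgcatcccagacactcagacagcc
Lalba: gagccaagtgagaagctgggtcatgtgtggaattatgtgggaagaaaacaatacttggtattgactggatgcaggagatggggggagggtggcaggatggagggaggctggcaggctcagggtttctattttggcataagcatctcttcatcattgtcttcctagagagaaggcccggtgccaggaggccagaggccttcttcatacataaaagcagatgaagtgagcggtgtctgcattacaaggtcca
The match was TTCTTAGAA from base 100 to base 92 before the start of Csn1s1, TTCTTGGAA from base 93 to base 85 before Csn2, and TTCCCAGAA from base 145 to base 137 before Glycam1. The motif reads the same on both strands and was found in 1940 of 27025 RefSeq promoter windows of this length (7.18%). The motif TTGCNNAA of the C/EBP factors, searched on both strands (TTNNGCAA on the other strand), was found in 0 of the 8 member windows, so that no overlap of both motifs arose, and in 9.55% of all windows. A match here is a run of letters and not a measured binding site.

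Between 36.0% and 46.3% of probes were well above background in the tumour channel, and no spot was saturated. The reference channel was above background on all 12 arrays for Lalba and Btn1a1 and on none for Csn2, Csn3 and Glycam1. For Wap it was above background on 1 array, for Lao1 and Muc1 on 2 each, for Csn1s1 on 3 and for Csn1s2a on 4. The ratios of all members but Lalba and Btn1a1 therefore have a background-level denominator on most or all arrays. Rarb ranged from -1.13 to 1.36 in KO epithelium against -0.76 to 0.85 in WT epithelium. In stroma it ranged from 0.57 to 2.09 in KO against -0.29 to 1.37 in WT. These values come from 1 of 2 Rarb probes, and the other was above background on no array. The sources used here do not say whether the probes lie in the deleted part, so these values do not check the labels. The captured stroma differed in its luminal marker RNA. The median ratio of 13 measured luminal markers ran from 0.08 to 0.77 in KO stroma and from 1.10 to 1.89 in WT stroma. Among them Epcam exceeded background on 0 of 3 arrays of KO stroma against 2 of 3 of WT stroma. The median ratio of 10 basal epithelial markers ran from 1.01 to 3.03 in KO stroma and from 3.13 to 3.83 in WT stroma. The summed Cy3 signal of 14 fibroblast markers was 770100 to 1087210 in KO stroma and 151575 to 503728 in WT stroma. In WT stroma replicate 2 genes of lymphocytes stood far above the other arrays, as given with Glycam1. KO arrays lie in the first row of each slide and WT arrays in the second, and each slide holds 1 compartment, so genotype cannot be told apart from slide row, nor compartment from slide.

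In KO stroma 3 milk protein genes were lower than in WT stroma and 1 gene of the milk fat globule membrane was higher. Lalba was 54.3-fold lower and Wap 49.9-fold lower, and Btn1a1 was 2.07-fold higher. The raw Wap signal in KO stroma was above background but low, at 99.5 to 295.5, so its fold is less certain than that of Lalba. The enzyme gene Lao1 was lower too, with a signal above background on 1 of 3 KO stroma arrays, so that the size of its difference is uncertain. These are 4 of 9 members at an adjusted p under 0.05 (limma, Benjamini-Hochberg over 13351 genes), against 6.45% of all genes tested, of which 2.93% were lower and 3.52% higher. The 4 caseins had lower means as well and did not pass the test. The median log2 fold change of the 9 members was -5.49, or -5.46 with the 4 members that were below background on all KO stroma arrays set at their bound, beside -0.01 for all genes. In such samples fewer cells of a type and less RNA per cell cannot be told apart.

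Lao1 encodes an L-amino acid oxidase that is secreted into mouse milk and releases hydrogen peroxide. Its ratio was 0.11, 1.27 and 0.44 in KO stroma replicates 1, 3 and 4, against 8.07, 4.78 and 7.21 in WT stroma replicates 1, 2 and 3. All 3 KO arrays lay below all 3 WT arrays, and the lowest WT array, replicate 2, was far above the highest KO array. The log2 fold change was -6.08 ± 1.13 (SE, n = 3 each, limma adjusted p = 0.0164). This probe exceeded background on KO stroma replicate 3 alone, so the values of KO replicates 1 and 4 are at the level of the background. The second Lao1 probe exceeded it on none of them, and its signal was at least 35.4-fold lower in KO stroma than in WT stroma (limma adjusted p = 0.0307 over all kept probes).

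Lalba encodes alpha-lactalbumin, the regulatory subunit that turns a galactosyltransferase into lactose synthase. Its ratio was 0.72, 2.71 and 1.47 in KO stroma replicates 1, 3 and 4 and 8.84, 6.25 and 7.10 in WT stroma replicates 1, 2 and 3. The groups did not overlap, and Lalba was above background in both channels on all 12 arrays, so that this ratio was measured on both sides. The means were 1.64 ± 1.0 on KO stroma arrays, against 7.40 ± 1.32 on WT stroma arrays (SD, n = 3 each). The log2 fold change was -5.76 ± 1.11 (SE, limma adjusted p = 0.0174).

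Wap encodes whey acidic protein, the main whey protein of rodent milk. Its ratio was 2.42, 0.26 and 0.62 in KO stroma replicates 1, 3 and 4 and 8.98, 4.22 and 7.01 in WT stroma replicates 1, 2 and 3. The groups did not overlap, with KO replicate 1 and WT replicate 2 the nearest to each other. The log2 fold change was -5.64 ± 1.43 (SE, n = 3 each, limma adjusted p = 0.0440). The second Wap probe gave -5.75 ± 1.24 (SE, limma adjusted p = 0.0272 over all kept probes). This second probe exceeded background on 1 of 3 KO stroma arrays, so the size of its fall is uncertain.

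The 3 calls rest on few arrays. With 1 stroma array left out at a time, Lalba and Lao1 passed in 4 of 6 fits each and Wap in 1 of 6. The adjusted p then ran from 0.0311 to 0.0736 for Lalba, from 0.0188 to 0.0698 for Lao1 and from 0.0371 to 0.155 for Wap. No member passed without KO stroma replicate 1 or without WT stroma replicate 1, while the log2 fold changes stayed between -6.34 and -5.04 for Lalba, between -7.03 and -5.39 for Lao1 and between -6.90 and -4.52 for Wap.

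**Figure D1:**
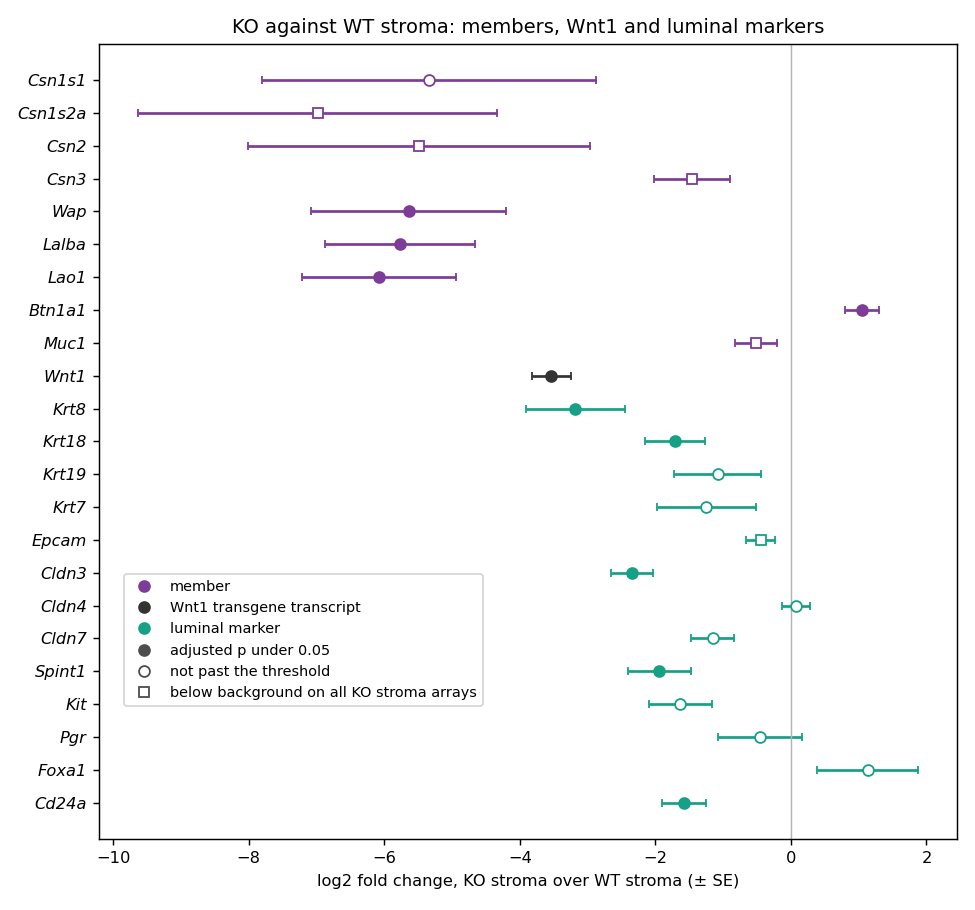
Log2 fold change of KO stroma over WT stroma (horizontal axis, points with bars of ± SE from the limma fit of 12 arrays) for the 9 members that passed the filter, for Wnt1 and for 13 luminal markers. Filled points passed an adjusted p of 0.05, and squares mark genes below background on all KO stroma arrays, whose values are set by the background. Wap, Lalba and Lao1 lie between -6.08 and -5.64, left of Wnt1 at -3.53 and of every luminal marker, of which Krt8 at -3.18 is the lowest, and Btn1a1 at 1.05 is the called member on the right.

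The caseins differed between WT tumours as much as between the groups. Csn2, beta-casein, was not above background on any KO stroma array, with ratios of 0.12, 0.52 and 0.11, against 9.24, 0.29 and 7.69 in WT stroma replicates 1, 2 and 3. WT replicates 1 and 3 were very high, whereas WT replicate 2 was also below background and lay inside the KO range. Its mean signal was at least 44.1-fold lower in KO stroma, a bound from the Cy3 channel. Only 2 of 3 WT arrays contributed a measured value, so the bound is not strict. The test gave an adjusted p of 0.241 in limma. Bounds of this kind compare single-channel signals after normalization and are open to dye bias.

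Csn1s2a, an alpha-S2 casein, gave the same picture with no overlap. Its ratios were -0.10, 0.09 and 0.09 in KO stroma, where no array was above background, against 10.34, 1.11 and 9.57 in WT stroma. WT replicate 2 was again the low array of its group. The signal was at least 149-fold lower in KO stroma, and the test gave an adjusted p of 0.152 in limma.

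Csn1s1, alpha-S1 casein, still exceeded background in 2 of 3 KO stroma samples. Its ratios were 4.47, 1.84 and 0.31 in KO stroma replicates 1, 3 and 4, against 10.57, 2.96 and 9.11 in WT stroma replicates 1, 2 and 3. The groups overlapped, because KO replicate 1 lay above WT replicate 2 (log2 fold change -5.34 ± 2.47, SE, limma adjusted p = 0.244). Csn3, kappa-casein, which caps the micelle surface, was at 0.10, 0.12 and 0.03 in KO stroma with no array above background, against 2.46, 0.86 and 1.30 in WT stroma. All KO arrays lay below all WT arrays for Csn3, and the signal was at least 2.15-fold lower in KO stroma (limma adjusted p = 0.154).

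Counted over the members, 5 of 9 had all KO stroma arrays below all WT stroma arrays, namely Wap, Lalba, Lao1, Csn1s2a and Csn3, and 1, Btn1a1, had all KO arrays above. Over all genes tested each arrangement held for 13.1%.

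Btn1a1 encodes butyrophilin, a receptor-like protein of the milk fat globule membrane, and its array pattern was unlike that of the secreted proteins. Its ratio was 1.74, 1.05 and 1.33 in KO stroma replicates 1, 3 and 4 and 0.32, 0.25 and 0.41 in WT stroma replicates 1, 2 and 3. The KO arrays lay above the WT arrays without overlap, with a log2 fold change of 1.05 ± 0.25 (SE, n = 3 each, limma adjusted p = 0.0339). The raw Cy3 signal was bright on all 12 arrays, from 8326 to 22609. It ran from 10967.5 to 22609 in KO stroma and from 8325.5 to 10023 in WT stroma. With 1 array left out, the call held in 1 of 6 fits, at adjusted p between 0.0403 and 0.110.

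Muc1, the transmembrane mucin of the luminal cell surface and the fat globule, was close to the limit of detection. Its ratios were 0.10, -0.07 and -0.08 in KO stroma, where no array was above background, and 1.18, 0.39 and -0.07 in WT stroma. The groups overlapped, and the test in limma was not passed (adjusted p = 0.378). The bound from the Cy3 channel was 1.19-fold lower in KO stroma. It is not strict, since WT stroma replicate 3 was also below background.

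Most luminal epithelial markers moved with these values, and basal epithelial markers did not pass the test. Wnt1, the transgene product of the epithelium, was 3.24 ± 0.49 on KO stroma arrays, against 6.77 ± 0.37 on WT stroma arrays (SD, n = 3 each), and the summed Cy3 signal of the luminal markers was 27784 to 60692 in KO stroma and 103524 to 181568 in WT stroma. Of 13 luminal markers 5 were lower and none was higher at the threshold, where 2.93% of all genes were lower and 3.52% higher. Among the 5 were Krt8 at a log2 fold change of -3.18 and Krt18 at -1.71. By mean 11 were lower and 2 higher in KO stroma. The higher ones were Foxa1, at -0.14 against -1.27 in WT stroma, and Cldn4, at 0.34 against 0.26. Foxa1 exceeded background on 1 of 3 KO and 0 of 3 WT stroma arrays. Of 10 basal markers 0 were called, against 6.45% of all genes. Their means were lower in KO stroma for 8 and higher for 2, with a median log2 fold change of -0.71. Their summed Cy3 signal was 200137 to 332834 in KO stroma and 360294 to 386977 in WT stroma. The basal keratin gene Krt5 was 8.08 ± 0.16 in KO stroma, against 8.02 ± 0.36 in WT stroma (SD, n = 3 each). A second, dimmer Krt5 probe gave a difference of KO minus WT stroma of -0.73. Krt14, another basal keratin gene, was 3.56 ± 0.85 in KO stroma, against 5.49 ± 1.52 in WT stroma (SD, n = 3 each). Set against the median ratio of the luminal markers of the same array, the difference of KO minus WT stroma was -4.66 for Lalba, -4.54 for Wap, 2.15 for Btn1a1 and -2.43 for Wnt1, which were above background on all KO stroma arrays. It was -4.24 for Csn1s1, above background on 2 of 3 of them. No such difference is given for members above background on fewer. The part of epithelial content in the fall of each gene was not tested.

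**Figure D2:**
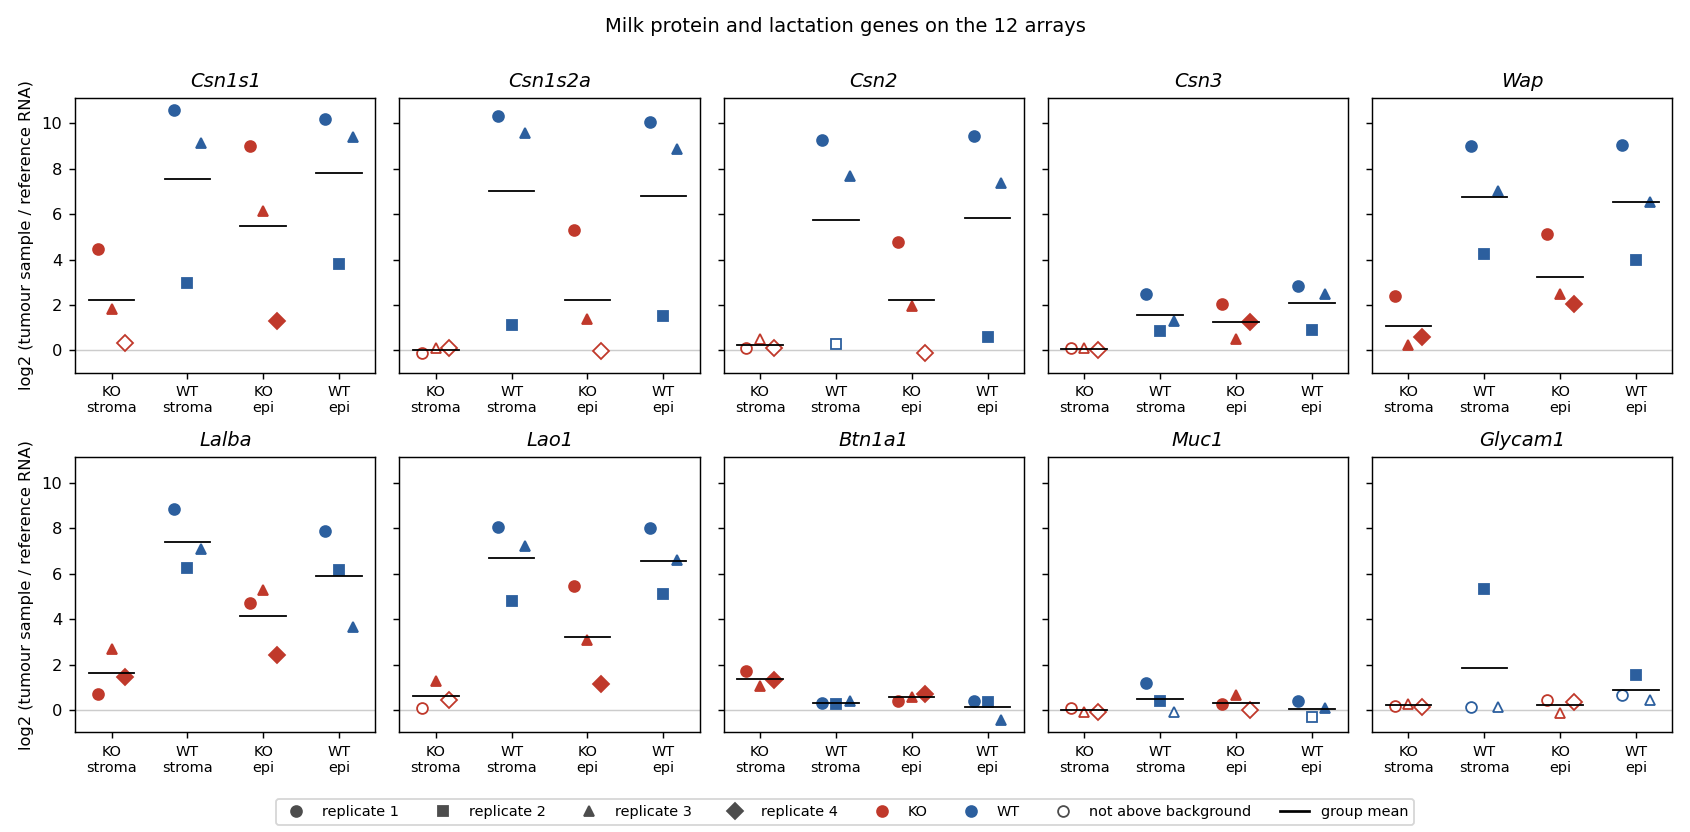
Log2 ratio of tumour sample over reference RNA (vertical axis) on each of the 12 arrays for the 10 members, by group. Symbols give the replicate number, open symbols mark arrays on which the tumour channel was not above background, and lines are group means of 3 arrays. The caseins, Wap, Lalba and Lao1 are lowest in KO stroma. WT replicate 2 is the lowest WT array of each compartment for the 4 caseins and Wap, and Glycam1 reaches 5.35 on 1 WT stroma array only.

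In tumour epithelium the same genes varied so much between tumours that KO and WT did not separate. Of 9 members 0 passed the limma test (0.00749% of all genes passed, which is 1 gene), all 9 overlapped between the groups (4.44% of all genes had every KO array below every WT array and 9.53% had every KO array above), and at an unadjusted p under 0.05 Lao1 (0.0139) and Wap (0.0425) were found, against 8.08% of all genes. The 7 secreted proteins had lower means in KO epithelium, and Btn1a1 and Muc1 had higher means. The median log2 fold change of the members was -2.32, beside 0.03 for all genes.

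Csn1s1, Csn1s2a and Csn2 showed the widest spread of the members among both KO and WT tumours. Csn1s1 was 8.98, 6.15 and 1.28 in KO epithelium replicates 1, 3 and 4, against 10.20, 3.79 and 9.40 in WT epithelium replicates 1, 2 and 3. Its raw Cy3 signal thus ran from 153 to 27855 among KO tumours and from 902 to 90097 among WT tumours. The log2 fold change was -2.32 ± 2.47 (SE, n = 3 each, limma adjusted p = 0.840), so the standard error was larger than the difference.

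Csn2 was 4.76, 1.97 and -0.11 in KO epithelium and 9.44, 0.61 and 7.37 in WT epithelium. Its range among the 3 WT tumours was 8.83 on the log2 scale, or 455-fold, and KO replicate 4 was below background. Csn1s2a was 5.29, 1.40 and -0.04 in KO epithelium and 10.07, 1.5 and 8.86 in WT epithelium. For both genes WT tumour 2 lay within the KO range, and the adjusted p was 0.727 for Csn2 and 0.674 for Csn1s2a in limma. Csn3 was 2.03, 0.52 and 1.26 in KO epithelium and 2.84, 0.91 and 2.51 in WT epithelium, with overlapping groups and an adjusted p of 0.715.

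Wap was 5.10, 2.49 and 2.06 in KO epithelium and 9.03, 4.0 and 6.53 in WT epithelium, and Lao1 was 5.45, 3.1 and 1.13 in KO epithelium and 8.0, 5.11 and 6.58 in WT epithelium. In both genes KO replicate 1 was the one KO array above the lowest WT array. The log2 fold changes were -3.30 ± 1.43 for Wap and -3.34 ± 1.13 for Lao1 (SE, n = 3 each, limma adjusted p = 0.613 for both). Lalba was 4.70, 5.28 and 2.43 in KO epithelium and 7.90, 6.18 and 3.65 in WT epithelium.

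The lowest WT value of Lalba, on WT epithelium replicate 3, came with a reference signal unlike that of the other arrays. The raw Cy5 signal of that spot was 20924, against 1118 to 3022 on the other 11 arrays, while its Cy3 signal of 191902 was the highest of all 12. With that spot set missing, the log2 fold change of KO over WT epithelium was -2.90 in place of -1.77, and its adjusted p of 0.612 in limma stayed above the threshold.

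Btn1a1 was 0.40, 0.58 and 0.70 in KO epithelium and 0.40, 0.36 and -0.42 in WT epithelium, and Muc1 was 0.25, 0.65 and 0.01 in KO epithelium and 0.39, -0.30 and 0.10 in WT epithelium. Neither separated KO from WT tumours (limma adjusted p = 0.664 for Btn1a1 and 0.881 for Muc1). The luminal markers did not pass either, with 0 of 13 called and a median log2 fold change of 0.43, and Wnt1 was 7.26 ± 0.27 in KO epithelium and 7.35 ± 0.28 in WT epithelium (SD, n = 3 each).

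The order of the 4 group means was shared by the 7 secreted proteins. In each of Csn1s1, Csn1s2a, Csn2, Csn3, Wap, Lalba and Lao1 the mean was lowest in KO stroma, next in KO epithelium and higher in both WT groups, with WT stroma above WT epithelium in 4 and below it in 3. The step from KO stroma to KO epithelium passed the test for Wap and Csn1s1, and no step from KO epithelium to WT epithelium or between the WT compartments passed. Btn1a1 had the reverse order of genotypes, with both KO means above both WT means.

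Within KO tumours Wap and Csn1s1 were lower in the stroma than in the epithelium of the same tumour, and the other secreted milk proteins did not pass the test. Wap was 4.35-fold lower and Csn1s1 9.59-fold lower in stroma, which are 2 of 9 members at an adjusted p under 0.05 in limma with tumour as a block, against 20% of all genes (9.86% lower and 10.2% higher). Of the 9 members 6 were lower in stroma in all 3 KO tumours, which held for 29.2% of all genes, and 1, Btn1a1, was higher in all 3, which held for 25.2%. The median log2 fold change of the members was -2.12, or -1.59 with 4 members at their bound, beside -0.03 for all genes. The called share of the members was near that of all genes.

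The stroma minus epithelium difference of Wap was -2.68, -2.24 and -1.44 in KO tumours 1, 3 and 4 (log2 fold change -2.12 ± 0.26, SE, limma adjusted p = 0.00400). All 3 tumours moved the same way, and the call held with each tumour left out. For Csn1s1 the difference was -4.51, -4.30 and -0.97 (log2 fold change -3.26 ± 0.67, SE, limma adjusted p = 0.0192). It was smallest in tumour 4, whose epithelium had little Csn1s1, and the call was lost without tumour 1 (adjusted p = 0.0947) and without tumour 3 (adjusted p = 0.0916). Neither call held when the tumour was not a fixed block: with tumour as a random block the limma adjusted p was 0.209 for Wap and 0.267 for Csn1s1, and in that fit Btn1a1 passed with higher values in stroma (adjusted p = 0.0253).

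Lalba differed by -3.98, -2.57 and -0.95 between stroma and epithelium of KO tumours 1, 3 and 4, and Lao1 by -5.34, -1.83 and -0.69. Both were lower in stroma in each tumour and missed the threshold, at limma adjusted p = 0.0583 and 0.0610. Csn3, below background on all KO stroma arrays, differed by -1.93, -0.40 and -1.23 (adjusted p = 0.0507), and its signal was at least 1.66-fold lower in stroma. Csn2, at -4.64, -1.45 and 0.22, and Csn1s2a, at -5.39, -1.30 and 0.13, were lower in stroma in tumours 1 and 3, while in tumour 4 neither compartment was above background. All 13 luminal markers were lower in KO stroma than in KO epithelium, with a median log2 fold change of -2.35. Of these 12 passed the limma test, where 9.86% of all genes were called lower. Wnt1 was lower by 4.02 on the log2 scale.

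**Figure D3:**
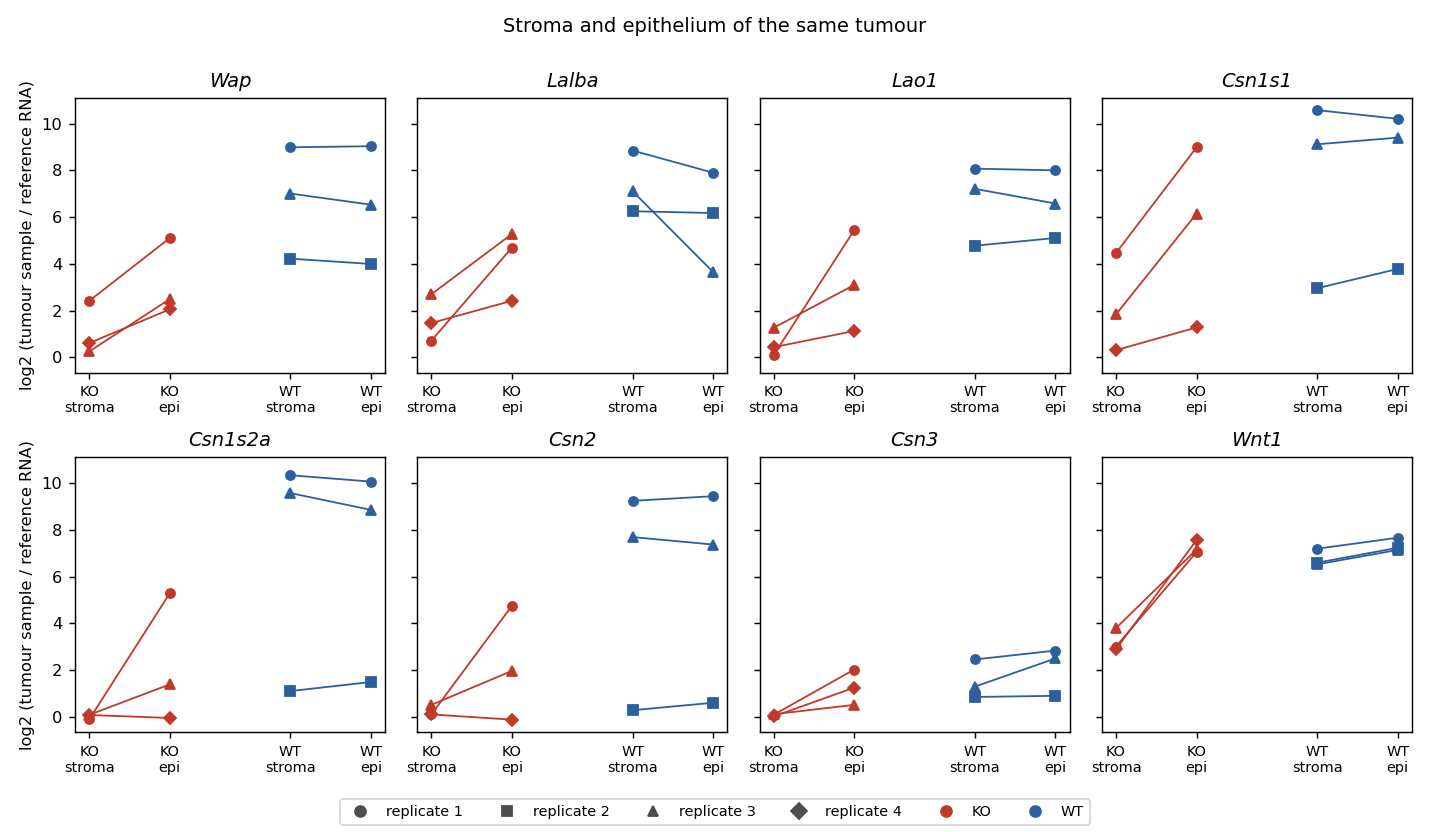
Log2 ratio of tumour sample over reference RNA (vertical axis) in stroma and epithelium, with a line joining the compartments of each tumour, for 7 secreted milk proteins and for Wnt1. Symbols give the replicate number. Lines of KO tumours run upward from stroma to epithelium for Wap, Lalba, Lao1 and Csn1s1, least steeply in KO tumour 4. Lines of WT tumours run in both directions. Their stroma minus epithelium values lie between -1.20 for Csn3 and 3.45 for Lalba, both in WT tumour 3.

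In WT tumours no member separated stroma from epithelium. Wap differed between stroma and epithelium by -0.05, 0.23 and 0.48 in WT tumours 1, 2 and 3, Csn2 by -0.20, -0.32 and 0.32, and Csn1s1 by 0.37, -0.82 and -0.29. The sign was mixed for each. Lalba was the 1 member that was higher in stroma in each WT tumour (16.3% of all genes were), by 0.95, 0.08 and 3.45, where the last rests on the epithelial spot with the bright reference signal. Csn3 was the 1 member that was lower in each (14.9% of all genes were), by -0.38, -0.05 and -1.20. None of the 9 members passed in limma (0.00749% of all genes did, and 8.83% had an unadjusted p under 0.05), and the smallest adjusted p among the members was 0.626, for Lalba. Wnt1 differed by -0.47, -0.64 and -0.62 in the same tumours.

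The difference of stroma minus epithelium between KO and WT tumours was tested directly, and 0 of 9 members and 0% of all genes passed in limma, while 18.1% of all genes had an unadjusted p under 0.05. Wap came nearest, with a difference of -2.34 ± 0.36 (SE, adjusted p = 0.0647), followed by Lalba at -3.99 ± 1.05 (SE, adjusted p = 0.139) and Csn1s1 at -3.02 (adjusted p = 0.187). Wap passed under 2 alternatives, with adjusted p of 0.0470 when only probes above background on all 12 arrays were tested and 0.0464 with array weights.

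WT tumours kept their rank in both compartments for most members. In both compartments WT tumour 1 was the highest WT tumour for all 4 caseins, Wap and Lao1, and WT tumour 2 was the lowest. Across the 12 arrays, which come from 6 tumours and share 1 reference RNA, the ratio of Csn1s2a went with that of Csn2 (Pearson r = 0.99), Csn1s1 with Csn2 (r = 0.93) and Wap with Lao1 (r = 0.94). Lalba followed Lao1 (r = 0.89) more closely than Csn1s1 (r = 0.67). Btn1a1 ran opposite to every other member, with r between -0.79 and -0.24. These correlations describe the arrays, in which group differences and tumour differences are mixed. Among 13260 other genes the 5 most like the mean of the members over the 12 arrays were Wdpcp (r = 0.94), the lysozyme-like gene Lyzl4 (r = 0.94), Dkkl1 (r = 0.92), Gpr157 (r = 0.91) and Akip1 (r = 0.91).

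Glycam1 encodes a mucin-like protein that is secreted into milk and is also made by the high endothelial venules of lymph nodes. It was above background on 2 of 12 arrays, both from WT tumour 2. Its ratio was 0.19, 0.29 and 0.14 in KO stroma and 0.13, 5.35 and 0.11 in WT stroma replicates 1, 2 and 3. In epithelium it was 0.43, -0.13 and 0.35 in KO and 0.68, 1.54 and 0.43 in WT. WT stroma replicate 2 alone was high, and the other stroma arrays of both genotypes lay between 0.11 and 0.29, all below background.

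The array with the high Glycam1 value had the lowest caseins of WT stroma, and lymphocyte genes were high on it. On WT stroma replicate 2 the lymph node homing receptor gene Ccr7 was at 6.49, and the T cell receptor complex gene Cd3g was at 3.60. The summed Cy3 signal of 5 measured genes of lymphocytes and lymph nodes, listed after these values were seen, was 1443 to 3716 on the KO stroma arrays, against 47448 on WT stroma replicate 2 and 1567 and 2153 on the other WT stroma arrays. In WT epithelium of the same tumour Madcam1, an adhesion molecule of high endothelial venules, was at 2.25, against 1.09 on WT stroma replicate 2. The other measured genes of this list were below the reference on that epithelial array. Ccr7 was at -0.13, Cd3g at -1.34, Cd79b at -2.19 and Cd3e at -2.52 there. The part of lymphoid tissue in the Glycam1 signal was not tested.

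**Figure D4:**
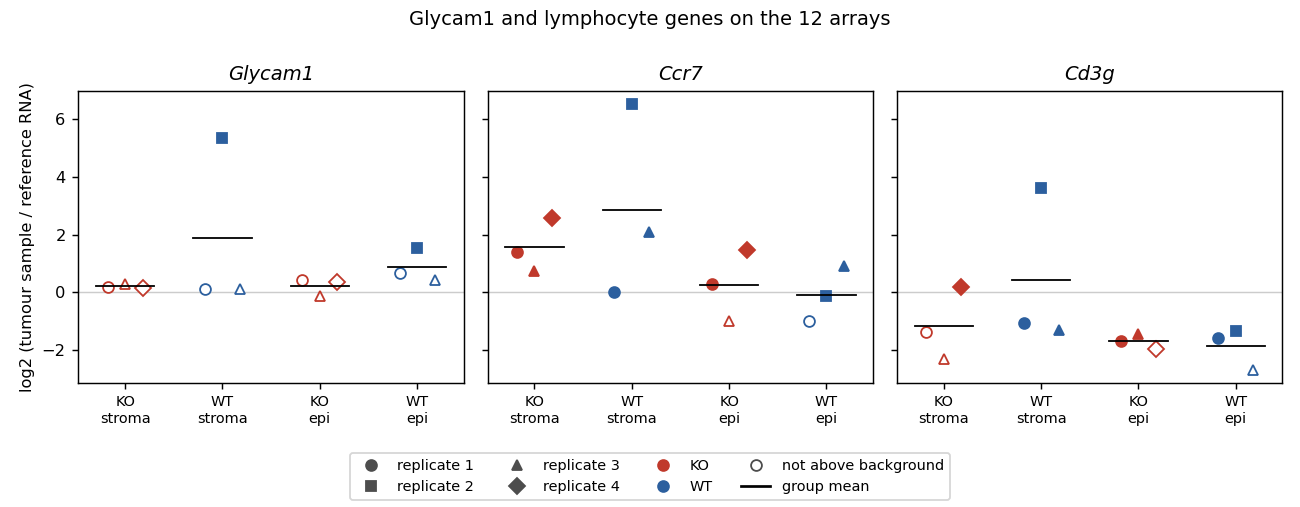
Log2 ratio of tumour sample over reference RNA (vertical axis) on the 12 arrays for Glycam1 and the lymphocyte genes Ccr7 and Cd3g, by group, with replicate symbols, open symbols for arrays not above background in the tumour channel and lines for means of 3 arrays. WT stroma replicate 2 is the highest array in each panel, at 5.35 for Glycam1, 6.49 for Ccr7 and 3.60 for Cd3g.

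Other genes of the lactation programme were less uniform. Of 15 other milk proteins 4 were lower and 0 higher in KO stroma than in WT stroma in limma, where 2.93% of all genes were lower and 3.52% higher: Folr1, the folate-binding protein, by -3.47 ± 0.75 on the log2 scale (SE, adjusted p = 0.0258), Spp1, osteopontin, by -3.07 ± 0.67 (adjusted p = 0.0257), Cel, the bile salt-stimulated lipase, by -2.86 ± 0.38 (adjusted p = 0.00585), and Lcn2, lipocalin 2, by -2.01 ± 0.23 (adjusted p = 0.00399). Spp1 exceeded background on 1 of 3 KO stroma arrays, so the size of its difference is uncertain. The median of the list was -1.02, beside -0.01 for all genes. Lcn2 and Cel spread less between tumours than any casein in WT stroma: Lcn2 was 3.64 ± 0.11 in KO stroma, against 5.65 ± 0.10 in WT stroma, and Cel was 4.04 ± 0.21 in KO stroma, against 6.90 ± 0.51 in WT stroma (SD, n = 3 each).

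Of 16 measured genes of the prolactin and Stat5 pathway 4 were lower in KO stroma and 0 higher, with a list median of -0.45. Elf5 was 4.92, 5.11 and 3.62 in KO stroma replicates 1, 3 and 4, against 8.51, 7.27 and 7.01 in WT stroma (log2 fold change -3.05 ± 0.48, SE, limma adjusted p = 0.0087). Its groups did not overlap, and WT replicate 1 was the highest stroma array, as it was for the caseins. The luminal transcription factor gene Gata3 fell by 1.85, Cish, a Stat5-induced inhibitor of cytokine signalling, by 1.48 and Irs1, an adaptor of the insulin receptor, by 1.20 on the log2 scale. Of 18 milk fat genes Srebf1, a regulator of lipid synthesis, was lower (log2 fold change -1.78) and 0 were higher, a share near the 6.45% of all genes called. Of 14 genes of lactose synthesis and transport the glucose transporter gene Slc2a1 was lower (-1.25) and the amino acid transporter gene Slc1a5 higher (1.63).

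In KO against WT epithelium none of the genes on these 4 lists passed in limma, and list medians lay between -0.45 for milk fat and -0.02 for lactose and transport. By the smallest p, Spp1 was at a log2 fold change of -1.09 and Cel at -0.76 among the milk proteins, the milk fat genes Thrsp and Lpl at -2.77 and -1.90, and Orai1 and Slc30a2, which move calcium and zinc, at -0.91 and 0.26. The prolactin receptor gene Prlr was at 5.22, 6.49 and 5.56 in KO epithelium and 4.70, 4.08 and 3.40 in WT epithelium. All KO arrays lay above all WT arrays for this probe (log2 fold change 1.70 ± 0.59, SE, limma adjusted p = 0.613), while a second, dimmer Prlr probe gave -0.29. Jak2 was at 0.35.

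In KO tumours the stroma was lower than the epithelium for 7 of 16 genes of the prolactin and Stat5 pathway and higher for 2, where 9.86% of all genes were lower and 10.2% higher. Prlr fell by 3.79, Elf5 by 3.46, Gata3 by 2.63 and Stat5a by 1.96 on the log2 scale, and the feedback inhibitors Socs1 and Socs2 rose by 1.68 and 0.98. For Prlr the second, dimmer probe gave a log2 difference of -0.05. Among 15 other milk proteins 5 were lower, led by Ltf, lactoferrin, at -2.88 and Folr1 at -2.42, and Fcgrt, the neonatal Fc receptor, was higher at 1.65. The called shares were below the 20% of all genes for milk fat, with 3 of 18 called, and for lactose synthesis and transport, with 2 of 14. Among milk fat genes Fabp4 and Lpl, which fat cells also express, were higher at 4.20 and 2.81 and Srebf1 lower at -1.77. Of the genes of lactose synthesis and transport Slc1a5 was higher at 1.85 and Slc2a1 lower at -0.79. In WT tumours 0 genes of the 4 lists passed between stroma and epithelium in limma.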

How the data were processed

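The 12 deposited scanner files come from Agilent Feature Extraction 10.7.3.1, per the file headers. For every spot they hold, per the file headers, the median intensity of spot and local background for each dye, Agilent's processed intensity, quality flags and the log10 ratio of Cy5 to Cy3. A deposited value table gives log2 values, but the sources used here do not give how they were made. Its epithelial columns opposed the sample over reference ratio (r from -0.920 to -0.887 over probes). Their medians were 0.02, 0.01 and 0.01 in KO and 0.00, -0.01 and -0.05 in WT, in replicate order. The stromal columns followed no array they belong to (r from -0.00323 to 0.00153). Their medians were 0.05, -0.01 and 0.00 in KO and 0.00, 0.01 and 0.01 in WT. Scale, centring and direction of the stromal columns are unknown, and they were not used.

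From the median intensities, background was removed by normexp with an offset of 50, loess was fitted on each array without controls, and the ratio was written as sample over reference. Mean signals had been planned, but these files give medians. Spots marked non-uniform were dropped (211 for WT epithelium replicate 3 and at most 16 for any other array), and replicate spots of a probe were averaged. Accessions matched to RefSeq (GRCm38.p6) named 27235 of 55681 probes. The brightest probe past the filter represented each of 13351 genes, and 2601 genes had more than 1. Tests used limma 3.58.1 in R 4.3.3 with Benjamini-Hochberg adjustment over all genes at 0.05. Genotypes were compared in a model of 4 group means with 8 residual degrees of freedom. Compartments, and the difference of that contrast between genotypes, were compared with a fixed term for tumour, which left 4 residual degrees of freedom. Tumours were paired by the number that the titles of both compartments share. As a check, deviations from group means were correlated between the 2 compartments over genes, which gave 0.09, 0.29 and 0.22 in KO tumours and 0.45, 0.29 and 0.25 in WT tumours.

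The models were tested on simulated data. Alternatives covered the signal used, background correction, probe filter, normalization between arrays, choice of probe, array weights, blocks, the arrays fitted and arrays left out. Every member was named in every comparison. From each other list, up to 6 called genes of largest change in their direction were named, or, in epithelium, the 2 of smallest p. Beside them stand some of the markers set beforehand, Wnt1, Rarb and the 5 genes most correlated with the members. Members and lists were chosen with earlier results of these data known. The number of arrays limits precision. Protein sequences were not used here.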

Additional observations from a re-analysis of the deposited data

Results flagged for a closer look

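The stroma minus epithelium difference of Lalba had opposite signs in KO and WT tumours, and neither passed the test in limma (adjusted p = 0.0583 in KO and 0.626 in WT tumours). It was -3.98, -2.57 and -0.95 in KO tumours 1, 3 and 4 and 0.95, 0.08 and 3.45 in WT tumours 1, 2 and 3, so every KO tumour was lower in stroma and every WT tumour higher. The difference between KO and WT tumours was -3.99 on the log2 scale and did not pass the test of that difference in limma (adjusted p = 0.139). With the WT epithelium replicate 3 spot of the bright reference signal set missing it was -3.01 (adjusted p = 0.184). The mean of the WT tumours was 1.49, against 0.51 with that spot missing and 0.24 on the Cy3 signal alone. None of the groups was large enough to be searched for single outlying arrays, since each has 3.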

How the results depend on the processing

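Of the results recomputed under the alternatives, 639 values kept their direction and side of the threshold or stayed within 1.5 times the count, 28 lost their call, 15 gained one and 8 turned their sign. Between KO and WT stroma 2 members passed in place of 4 when only the 6 stroma arrays were fitted, and from 0 to 3 passed with 1 array left out. Wap lost its call in 8 of 17 settings and Btn1a1 in 9 of 17, Lalba in 3 of 17 and Lao1 in 2 of 16. With Agilent's processed signals Csn3 passed (adjusted p = 0.0194, against 0.154). Between KO and WT epithelium 1 member, Wap, passed in a fit with the replicate number as a replicate block (adjusted p = 0.00778), and in stroma 6 members passed in that fit, all lower. The genotypes share 2 numbers that belong to different tumours, and deviations of same-numbered arrays correlated at 0.30 and -0.30 in epithelium and 0.04 and -0.06 in stroma, so the number is not taken as a pairing. In KO tumours 1 member, Btn1a1, passed between compartments with tumour as random replicate block and likewise with no replicate block, 4 passed on the Cy3 signal alone, and 1 to 2 passed with 1 tumour left out, in place of 2. For the difference of that contrast between genotypes 1 member, Wap, passed with the filter on all 12 arrays and with array weights, in place of 0. Without WT replicate 2 the stroma minus epithelium value of WT tumours turned to 0.0421 for Csn1s1 and 0.0600 for Csn2, and without WT replicate 3 to -0.0585 for Csn1s2a, -0.13 for Lao1 and -0.10 for Btn1a1. With 1 WT tumour left out at a time it ran from -0.55 to 0.0421 for Csn1s1, from -0.26 to 0.0600 for Csn2, from -0.0585 to 0.49 for Csn1s2a, from -0.13 to 0.35 for Lao1 and from -0.10 to 0.37 for Btn1a1. On the Cy3 signal alone it turned to 0.32 for Csn2 and -0.0380 for Muc1, and Muc1 turned to -0.00718 in KO against WT epithelium. None of these passed the test before or after. The Cy3 signal alone and the missing Lalba spot were chosen after seeing the data. The cause of these changes was not tested, apart from the smaller number of arrays where arrays were left out. Counts over all genes moved as well: in stroma 861 genes passed, against 294 with the stroma arrays alone and from 175 to 885 with 1 array left out; between compartments of KO tumours 2674 passed, against 1074 to 1207 with 1 tumour left out; for the difference between genotypes 0 passed, against 22 with no filter, 83 with the filter on all 12 arrays, 157 with array weights, 269 with a random block, 50 with no block, 34 on Cy3 alone and 144 without WT replicate 3. Signal near background limits KO stroma. Csn1s2a, Csn2, Csn3 and Muc1 exceeded background on no array, Lao1 on 1 of 3 and Csn1s1 on 2 of 3. The differences of the genes above it on no array are bounds. These are not strict for Csn2 and Muc1, which also had a WT stroma array below background.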

Other observations

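Fabp3, a fatty acid-binding protein of the mammary gland and muscle and one of the milk fat genes, varied strongly between WT tumours and was picked out after its values were seen. Its ratio was -1.90, -3.0 and -3.93 in KO stroma replicates 1, 3 and 4 and 2.80, -4.19 and 2.04 in WT stroma replicates 1, 2 and 3. In epithelium it was -3.42, -4.25 and -3.80 in KO and 3.27, -4.43 and -0.45 in WT. WT tumour 2 was thus the lowest of the 6 arrays in each compartment, and the KO means were -2.94 in stroma and -3.82 in epithelium. The second Fabp3 probe gave a log2 difference of KO minus WT of -3.17 in stroma and -3.34 in epithelium.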
